A study of Mus musculus with 15 samples.

Results

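The transcripts described here are those of the E2f transcription factors E2f1, E2f2, E2f3, E2f4, E2f5, E2f7 and E2f8 and of the 3 pocket proteins Rb1, Rbl1 and Rbl2. They were taken by gene symbol, and all 10 had a row in each of the 15 deposited tables, out of 27803 genes listed in any of them. Drop-seq, in which single cells are caught in droplets with barcoded beads and the 3′ end of each mRNA is tagged with a unique molecular identifier (UMI), had been run on 15 mice of the C57BL/6 strain, 1 library a mouse. The WT group was 5 untreated wild type cerebella at day 7 after birth. The 5 Vehicle and 5 Vismodegib samples were medulloblastomas of mice with the genotype Math1-Cre:SmoM2/EYFPloxP/loxP, called M-Smo, in which Cre under an Atoh1 promoter switches on a constitutively active Smoothened allele in cerebellar granule neuron progenitors and their descendants. Both tumor groups were injected daily from day 12 to day 14, with 75 mg/kg of the Smoothened inhibitor vismodegib or with its solvent, and were collected at day 15. WT and Vehicle therefore differed in genotype, age, injection, capture device and the human spike-in cells that were mixed into the tumor preparations alone, and these cannot be told apart.

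E2F proteins bind DNA and switch genes of DNA replication and mitosis on or off. In resting cells the pocket proteins pRB, p107 and p130, made from Rb1, Rbl1 and Rbl2, hold E2F proteins in inactive or repressing complexes. Cyclin D with Cdk4 or Cdk6, and later cyclin E with Cdk2, phosphorylate the pocket proteins and free the activators E2F1, E2F2 and E2F3. E2F4 and E2F5 act mainly as repressors with the pocket proteins, and E2F7 and E2F8 are atypical repressors that bind DNA without a DP partner and damp the program late in S phase and in G2. In granule neuron progenitors, the cells of origin of these tumors, Sonic hedgehog signaling drives this circuit through D-type cyclins and Mycn.

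In the GENCODE annotation of GRCm38, E2f1 lies at chr2:154559407-154569892 on the minus strand and E2f2 at chr4:136172394-136196057 on the plus strand. E2f3 spans chr13:29906575-29986063 and E2f8 chr7:48866429-48881596, both on the minus strand, and E2f7 spans chr10:110745439-110787384 on the plus strand. Rb1 spans chr14:73183673-73325822, minus strand, and holds Lpar6 on the other strand and the noncoding Gm17233 on its own strand. E2f3, E2f5, E2f7, E2f8, Rbl1 and Rbl2 also overlap annotated genes on the other strand, such as Aktip for Rbl2. No source used here says whether counting was strand-aware. UMIs of Rb1 and of these members may therefore not be separable from those of the genes that overlap them.

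RefSeq promoter windows of 300 bases (GRCm38.p6, from 250 bases before to 50 bases after the transcription start) matched 7 of the 10 genes, with 9 windows in all and none for E2f4, E2f5 and Rb1. The windows were searched on both strands for the E2F letters TTTCCCGC, TTTCGCGC, TTTGCCGC and TTTGGCGC and for the cell cycle genes homology region (CHR) letters TTTGAA, 2 elements described in promoters of cell cycle genes. An E2F match was found for 4 of the 7 genes (E2f2, E2f3, E2f7 and Rbl1), in 4 of the 9 windows, and in 2.26% of all 32851 windows. A CHR match was found for 4 of the 7 genes (E2f2, E2f3, E2f8 and Rbl2), in 4 of the 9 windows, and in 17.9% of all windows. The window of E2f1 held neither. The E2F match of E2f2 lay after the transcription start and is not printed. The matches before the start are shown here because most of these genes are described below as moving together across the cell cycle, with the E2F or CHR letters in capitals, read 5′ to 3′ on the gene's strand.
Rbl1, chr2:157204535-157204577, minus strand: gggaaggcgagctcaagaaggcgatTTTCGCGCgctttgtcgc
E2f3, chr13:29986064-29986111, minus strand: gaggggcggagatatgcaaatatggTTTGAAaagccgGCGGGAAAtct
E2f7, chr10:110745216-110745273, plus strand: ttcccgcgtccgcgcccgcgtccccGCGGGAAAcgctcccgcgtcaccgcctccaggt
E2f8, chr7:48881597-48881641, minus strand: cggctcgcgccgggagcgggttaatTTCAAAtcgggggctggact
E2f2, second start, chr4:136180726-136180781, plus strand: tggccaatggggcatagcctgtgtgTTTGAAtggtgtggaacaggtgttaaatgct
Rbl2, chr8:91069831-91069886, plus strand: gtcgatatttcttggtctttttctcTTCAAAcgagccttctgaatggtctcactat
E2f3 held both elements, CHR before E2F, in the last 23 bases before its start, whereas the Rbl2 match lay 201 bases before its start. A match says only that these letters are in the window, and occupancy by any factor was not measured.

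The tables held 2310474 to 17708677 UMIs a library. After the limits on cells 805 to 8103 cells a library were kept, 37946 in all, with a median of 1082.5 to 2597 UMIs a cell, and no pair of libraries shared more than 13 barcodes. Cells were clustered without the 10 genes, and 33611 cells fell in clusters with granule lineage markers, called granule lineage-like, 17276 of them in Vehicle, 11280 in Vismodegib and 5055 in WT. Levels are given in CPM, a gene's UMIs scaled to all UMIs of the cells summed in an animal, and comparisons are log2 fold changes with their SE, tested with edgeR on summed counts and called at an adjusted p under 0.05 over all genes tested. Over the 15 animals the granule lineage-like cells gave 1280 UMIs for Rbl2, the sparsest of the 10, and 6046 for E2f1. The first component of the deviations of the 10 tumors from their group means held 37.9% of their variance, with Vehicle 1 and 3 and Vismodegib 1 and 2 on one side and the other tumors on the other, and E2f1 and Rb1 are therefore given animal by animal. Gli1, the transcript most directly driven by hedgehog signaling, was at 106, 71.5, 84.2, 47.5 and 55.3 CPM in the 5 Vehicle tumors and at 68.7, 93.2, 47.2, 27.0 and 27.7 CPM in the 5 Vismodegib tumors, with overlapping groups and a log2 fold change of -0.48 ± 0.32 (adjusted p = 0.379).

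Granule lineage-like cells were divided by marker genes that exclude the 10 transcripts, after thinning each cell to 500 UMIs. The S markers were genes of DNA replication, such as the Mcm genes, Pcna and Rrm2, and the G2/M markers genes of mitosis. E2F proteins switch such genes, as given above, so leaving out the 10 transcripts does not make the classes independent of E2F activity. A cell with at least 8 UMIs of the G2/M markers was called G2/M, otherwise with at least 5 UMIs of the S markers S, otherwise with at least 6 UMIs of neuronal differentiation markers differentiating, and the remaining cells G0/G1-like. Differentiating cells made up 26.0% ± 4.46 (SD, n = 5) of the granule lineage-like cells of Vehicle tumors and 56.7% ± 11.9 of those of Vismodegib tumors (adjusted p = 0.0159, exact permutation test, 2-sided). G0/G1-like cells made up 31.3% ± 1.96 and 11.2% ± 3.28 (adjusted p = 0.0159, exact permutation test), and G2/M cells 22.8% ± 2.78 and 16.1% ± 4.16 (adjusted p = 0.0212, exact permutation test). The S phase share was 19.9% ± 3.85 in Vehicle and 16.0% ± 5.05 in Vismodegib and did not pass (adjusted p = 0.214, exact permutation test). In WT cerebella the shares were 43.1% differentiating, 19.9% G0/G1-like, 16.9% G2/M and 20.1% S. A class of an animal held 86 to 2717 cells. Cells near a limit of the rule were common in S phase (27.2% in Vehicle, 26.2% in Vismodegib and 31.7% in WT) and in the G0/G1-like class, where 25.3% of cells in Vehicle, 45.8% in Vismodegib and 43.6% in WT lay within 1 UMI of a limit, and all cells of the class held 1.74 ± 0.0807, 2.06 ± 0.133 and 2.16 ± 0.0992 S marker UMIs each (mean of animal means ± SD).

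**Figure D1:**
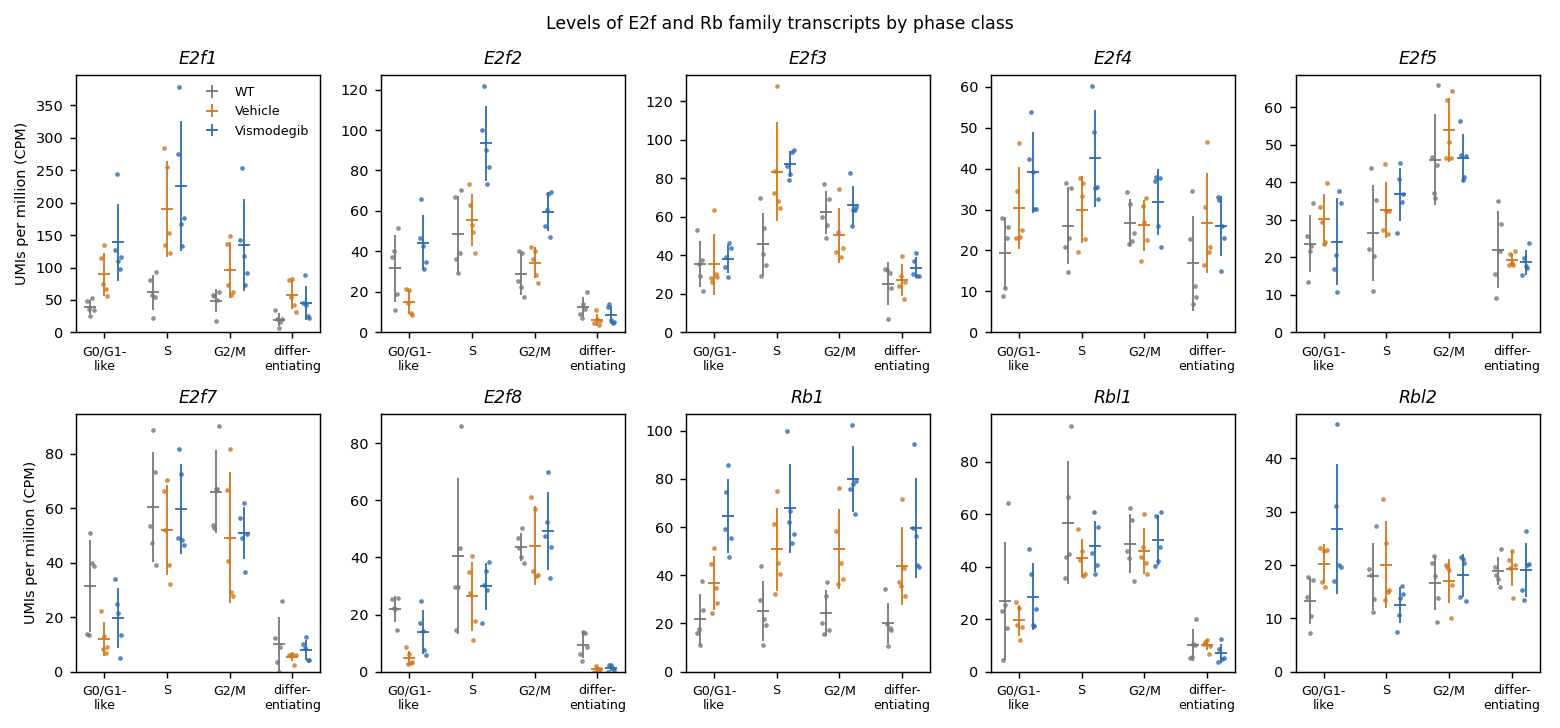
Level of each of the 10 transcripts in CPM (linear axis from 0) in the 4 phase classes of granule lineage-like cells, for WT, Vehicle and Vismodegib. Each point is 1 animal and each bar with whiskers the mean ± SD of 5 animals. By their means E2f1, E2f2, E2f3, E2f5, E2f7, E2f8 and Rbl1 were lowest in differentiating cells in all 3 groups, and E2f5, E2f8, Rb1 and Rbl1 were highest in G2/M in Vehicle and Vismodegib.

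The first question is how the 10 transcripts follow the cell cycle. In Vehicle tumors 7 of the 10 were called higher in S phase than in G0/G1-like cells and none lower, beside 28.3% of all genes tested called in either direction. They were the activators E2f1, E2f2 and E2f3, the atypical repressors E2f7 and E2f8 and the pocket protein genes Rbl1 and Rb1. In Vismodegib tumors 6 were called higher and Rbl2 lower, beside 20.7%. In WT 2 of 9 tested were called, both higher, beside 8.15%. From S to G2/M the members parted: 5 of 10 were called in Vehicle (beside 23.1%), with E2f1, E2f2 and E2f3 lower and E2f5 and E2f8 higher. In differentiating against G0/G1-like cells, 7 of 10 were called in Vehicle (beside 60%), of which 6 were lower and Rb1 higher, 7 of 10 in Vismodegib (beside 57.9%), all lower, and 5 of 9 in WT (beside 44.2%), all lower. These phase fits hold the animal as a block. Without the block the Vehicle calls of E2f1, E2f2, E2f3 and E2f8 for G2/M against S were lost (-0.94, -0.64, -0.65 and 0.82, adjusted p 0.106 to 0.201). The Vismodegib calls of the same genes were lost too (-0.68, -0.58, -0.36 and 0.72, adjusted p 0.255 to 0.455). So were the S phase calls of Rb1 in Vehicle (0.53, adjusted p = 0.325) and of E2f1, Rbl1 and Rbl2 in Vismodegib (adjusted p 0.0594 to 0.284). Those of E2f7 and Rbl1 in WT were also lost (adjusted p 0.236 to 0.277). In differentiating cells of Vehicle the calls of E2f1, E2f7 and Rb1 were lost (adjusted p 0.062 to 0.43). With stricter limits on marker UMIs several differences that stayed called were over 1.5 times larger. They were S phase for E2f8 in Vehicle (4.37) and Vismodegib (2.74) and for E2f7 in Vismodegib (3.55) and WT (2.37). They were also G2/M against S for E2f2 in Vehicle (-1.07) and E2f3 in Vismodegib (-0.74), and differentiating cells for E2f1 in WT (-1.57). Against G0/G1-like cells the median change of the 10 in S phase was 1.18 in Vehicle and 0.81 in Vismodegib, beside -0.03 over all genes tested in Vehicle.

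**Figure D2:**
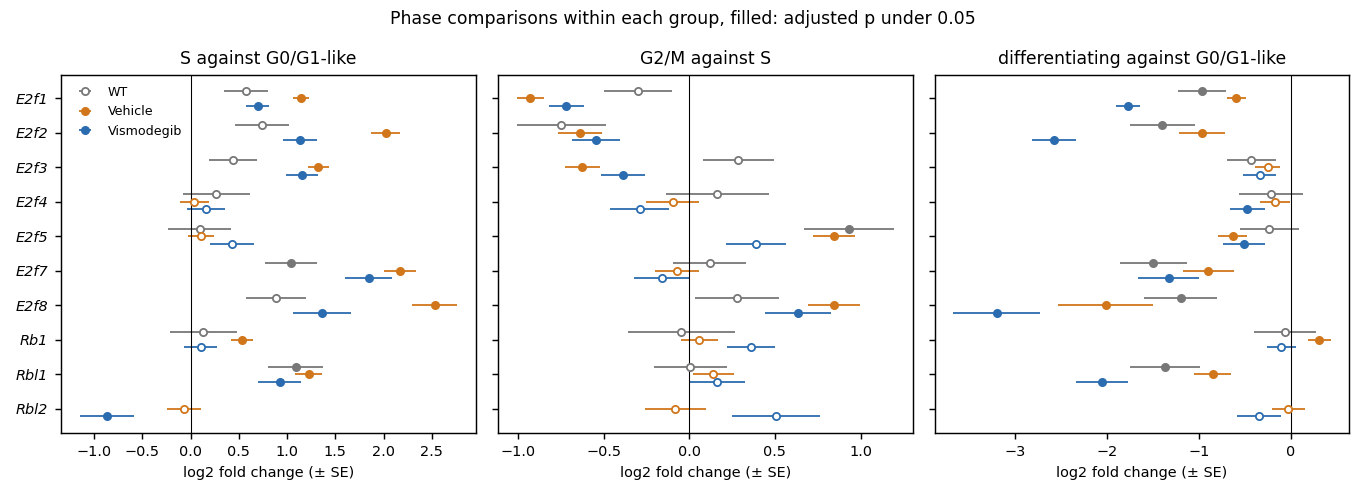
Log2 fold change ± SE (edgeR, animal as block) of each transcript for S against G0/G1-like, G2/M against S and differentiating against G0/G1-like cells, within WT, Vehicle and Vismodegib. Filled points passed an adjusted p under 0.05. E2f8 has the largest S phase difference in Vehicle, 2.53, and E2f1, E2f2 and E2f3 lie left of 0 for G2/M against S in both tumor groups.

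E2f1, an activator and itself a target of E2F proteins, peaked in S phase in every tumor. In Vehicle tumors 1 to 5 it was at 285, 135, 255, 153 and 122 CPM in S phase and at 114, 74.4, 135, 66.2 and 56.8 CPM in G0/G1-like cells. Each animal was higher in S phase than in its own G0/G1-like cells, and Vehicle 1 and 3 were the highest in both. The S phase difference was 1.14 ± 0.08 (adjusted p = 4.94e-17) in Vehicle and 0.69 ± 0.11 (adjusted p = 4.46e-06) in Vismodegib. In WT it was 0.58 ± 0.23 (adjusted p = 0.108), with 4 of 5 animals higher in S. From S to G2/M E2f1 was lower in all 15 animals, with differences of -0.93 ± 0.08 in Vehicle and -0.72 ± 0.10 in Vismodegib, both called (adjusted p = 5.27e-14 and 1.15e-07), and of -0.30 ± 0.20 in WT, not called. It was also lower in differentiating than in G0/G1-like cells in all 15 animals, and called in each group, with -0.60 ± 0.10 in Vehicle, -1.77 ± 0.13 in Vismodegib and -0.97 ± 0.26 in WT. The WT call was lost without WT 4 (-0.68, adjusted p = 0.0705).

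E2f2, the second activator, also had its highest mean in S phase in both tumor groups. In S phase of Vehicle tumors it was at 73.3, 62.9, 53.0, 49.6 and 39.1 CPM, in their G0/G1-like cells at 21.4, 14.5, 21.0, 9.77 and 8.81 CPM and in their differentiating cells at 4.47, 11.1, 6.64, 3.43 and 5.82 CPM. S phase did not overlap with either other class. The S phase difference was 2.02 ± 0.15 (adjusted p = 4.89e-16) in Vehicle and 1.133 ± 0.18 (adjusted p = 1.24e-06) in Vismodegib, and WT gave 0.74 ± 0.28 (adjusted p = 0.0939). From S to G2/M it was -0.64 ± 0.13 (adjusted p = 0.000134) in Vehicle and -0.54 ± 0.14 (adjusted p = 0.00371) in Vismodegib. In WT that difference was -0.75 ± 0.26 (adjusted p = 0.0624), and it was called without WT 2 or without WT 4 (-0.92 and -1.02, adjusted p = 0.0256 and 0.0248). E2f2 was lower in differentiating than in G0/G1-like cells in each group, with differences of -0.97 ± 0.25 in Vehicle, -2.57 ± 0.24 in Vismodegib and -1.40 ± 0.35 in WT, all called. With stricter limits on marker UMIs the Vehicle call was lost (-0.52, adjusted p = 0.199) and E2f2 was not tested in WT.

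E2f3, the third activator, was at 72.4, 84.1, 128, 68.3 and 64.7 CPM in S phase of the Vehicle tumors and at 28.2, 26.3, 63.7, 30.1 and 29.0 CPM in their G0/G1-like cells, and Vehicle 3 was the highest animal in both. The S phase difference was 1.32 ± 0.11 (adjusted p = 9.99e-15) in Vehicle and 1.16 ± 0.17 (adjusted p = 2.04e-07) in Vismodegib, with all 10 tumors higher in S. From S to G2/M it was -0.62 ± 0.10 (adjusted p = 2.11e-06) in Vehicle and -0.39 ± 0.13 (adjusted p = 0.0301) in Vismodegib, and the second call was lost without Vismodegib 2, 4 or 5 (-0.38 to -0.36, adjusted p 0.0704 to 0.148), by DESeq2 (-0.38, adjusted p = 0.0799) and with no filter (-0.37, adjusted p = 0.0991). In WT the S phase difference was 0.44 ± 0.25 (adjusted p = 0.321), and it was called with stricter limits (1.43, adjusted p = 0.0394). E2f3 was higher in G2/M than in S in 4 of 5 WT animals, a difference of 0.29 ± 0.21 (adjusted p = 0.503) that was not called. The difference between tumors and WT was not tested. Differentiating cells gave -0.26 ± 0.14 (adjusted p = 0.111) in Vehicle, which was called without Vehicle 2 (-0.39, adjusted p = 0.0342), and did not pass in the other groups.

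E2f8, an atypical repressor, had its highest mean in G2/M cells in each group. In G2/M cells of Vehicle tumors it was at 61.1, 35.1, 57.1, 33.6 and 33.7 CPM, in S phase at 34.9, 27.5, 40.3, 11.2 and 17.6 CPM and in differentiating cells at 0, 2.09, 1.33, 0 and 0.831 CPM, the last from 6 UMIs in the 5 animals together. G2/M was the highest class in each of the 10 tumors and in 4 of 5 WT animals. E2f8 was higher in S phase than in G0/G1-like cells by 2.53 ± 0.23 (adjusted p = 4.29e-13) in Vehicle and 1.36 ± 0.30 (adjusted p = 0.000467) in Vismodegib. In Vehicle E2f8 passed the filter on low counts through S and G2/M cells, where it was high. It was higher again in G2/M than in S by 0.85 ± 0.15 (adjusted p = 1.43e-05) in Vehicle and 0.63 ± 0.19 (adjusted p = 0.0176) in Vismodegib. The Vismodegib call was lost without Vismodegib 1, 2 or 3 (0.52 to 0.58, adjusted p 0.0687 to 0.0916), by DESeq2 (0.67, adjusted p = 0.0713) and with stricter limits (0.47, adjusted p = 0.144). In WT the S phase difference was 0.88 ± 0.31 (adjusted p = 0.0669) and was called without WT 2 (1.03, adjusted p = 0.0413), and the G2/M difference was 0.28 ± 0.25 (adjusted p = 0.612). It was lower in differentiating cells in each group, -2.02 ± 0.52 in Vehicle, -3.20 ± 0.47 in Vismodegib and -1.20 ± 0.40 in WT, where the call was lost without WT 1 (-0.93, adjusted p = 0.109). With stricter limits the calls were lost in Vehicle (-1.97, adjusted p = 0.105) and in Vismodegib (-1.94, adjusted p = 0.0855), and E2f8 was not tested in WT.

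E2f7, the other atypical repressor, was not called between S and G2/M. In Vehicle tumors it was at 66.5, 51.9, 70.3, 39.3 and 32.4 CPM in S phase, 66.6, 40.5, 81.6, 29.3 and 27.8 CPM in G2/M and 22.3, 8.16, 13.1, 6.77 and 9.04 CPM in G0/G1-like cells. Vehicle 1 and 3 were the highest in each of the 3 classes. The S phase difference was 2.17 ± 0.17 (adjusted p = 9.89e-16) in Vehicle, 1.84 ± 0.25 (adjusted p = 3.35e-08) in Vismodegib and 1.04 ± 0.27 (adjusted p = 0.00697) in WT, where it was lost without WT 1 (0.85, adjusted p = 0.0765), and E2f7 was higher in S in 15 of 15 animals. From S to G2/M it was -0.07 ± 0.13, -0.16 ± 0.16 and 0.12 ± 0.21 in the 3 groups, none of which passed. In differentiating cells it was lower, with differences of -0.90 ± 0.28 (adjusted p = 0.00473) in Vehicle, -1.33 ± 0.33 (adjusted p = 0.000444) in Vismodegib and -1.50 ± 0.36 (adjusted p = 0.000485) in WT. With stricter limits on marker UMIs none of these 3 was called, and the Vismodegib value turned to 0.38.

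E2f5, a repressor, was called higher in G2/M than in S in Vehicle without a call between S and G0/G1-like cells. It was at 46.5, 62.0, 50.7, 46.4 and 64.2 CPM in G2/M cells of the Vehicle tumors, at 27.3, 44.8, 32.3, 26.2 and 32.4 CPM in S and at 33.4, 29.5, 23.6, 24.1 and 39.9 CPM in G0/G1-like cells. G2/M was above S in all 5 tumors. The G2/M difference was 0.85 ± 0.12 (adjusted p = 2.41e-07) in Vehicle and 0.93 ± 0.26 (adjusted p = 0.0144) in WT, the single call of 9 tested there (beside 7.4%), which was lost without WT 1 or WT 4 (0.83 in each case, adjusted p 0.111 to 0.153). In Vismodegib, where 4 of 10 members were called for G2/M against S (beside 14.3%), it was 0.39 ± 0.17 (adjusted p = 0.139). Its S phase differences, 0.11 in Vehicle, 0.43 in Vismodegib and 0.10 in WT, did not pass.

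E2f4, the other classical repressor, gave no call between G0/G1-like, S and G2/M cells in any group. Over all granule lineage-like cells it was at 19.5, 33.2, 37.5, 28.0 and 23.0 CPM in the Vehicle tumors, 41.9, 40.4, 25.9, 30.1 and 24.98 CPM in the Vismodegib tumors and 27.1, 27.6, 15.2, 19.0 and 22.2 CPM in WT. The S phase difference was 0.04 ± 0.15 in Vehicle, 0.16 ± 0.20 in Vismodegib and 0.27 ± 0.35 in WT. In Vismodegib it was lower in differentiating cells, with a difference of -0.48 ± 0.19 (adjusted p = 0.0299), a call lost without Vismodegib 1, 2, 3 or 5 (-0.49 to -0.34, adjusted p 0.0608 to 0.16). E2f5 was lower there too, with a difference of -0.51 ± 0.23 (adjusted p = 0.0498), lost without Vismodegib 1, 4 or 5 (-0.49 to -0.18, adjusted p 0.0715 to 0.626). Both were lost by DESeq2, with no filter and with stricter limits (adjusted p 0.0883 to 0.479). That of E2f5 was also lost with 4 SD limits on cells (-0.46, adjusted p = 0.0803). E2f5 was also lower in differentiating cells in Vehicle, with -0.64 ± 0.16 (adjusted p = 0.000412).

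Of the pocket protein genes, Rbl1 was called higher in S phase than in G0/G1-like cells and lower in differentiating cells in each group. Rbl1 was at 54.5, 42.4, 46.1, 36.5 and 37.2 CPM in S phase, 43.8, 47.4, 60.2, 41.4 and 37.3 CPM in G2/M and 26.5, 17.7, 24.4, 12.03 and 17.2 CPM in G0/G1-like cells of the Vehicle tumors, with S above G0/G1-like cells in 5 of 5 tumors. The S phase difference was 1.22 ± 0.14 (adjusted p = 6.2e-10) in Vehicle, 0.92 ± 0.22 (adjusted p = 0.00129) in Vismodegib and 1.09 ± 0.29 (adjusted p = 0.00847) in WT, the last lost without WT 4 (0.99, adjusted p = 0.0647) and with stricter limits (1.00, adjusted p = 0.176). Unlike the activators, it was not called lower in G2/M than in S in either tumor group, with differences of 0.14 ± 0.12 in Vehicle and 0.16 ± 0.16 in Vismodegib, and G2/M had its highest class mean in both. Differentiating cells were lower, with differences of -0.85 ± 0.20, -2.05 ± 0.28 and -1.37 ± 0.38 in the 3 groups, all called, the last lost with hemoglobin genes kept in the clustering (-1.05, adjusted p = 0.0508). Rb1 was at 61.4, 32.2, 74.9, 44.9 and 40.4 CPM in S phase and 44.5, 24.5, 51.5, 34.6 and 28.5 CPM in G0/G1-like cells of the Vehicle tumors, and the animals differed more than the classes did. The paired differences were 0.53 ± 0.12 (adjusted p = 0.00026) for S in Vehicle, 0.11 ± 0.17 (adjusted p = 0.727) in Vismodegib and 0.13 ± 0.35 (adjusted p = 0.893) in WT. From S to G2/M in Vismodegib Rb1 differed by 0.36 ± 0.14 (adjusted p = 0.0732) and was called without Vismodegib 1 (0.49, adjusted p = 0.0217). Rb1 was the one member called higher in differentiating cells, by 0.31 ± 0.12 (adjusted p = 0.0291) in Vehicle, and the call was lost without Vehicle 2, 3 or 4 (0.23 to 0.28, adjusted p 0.0782 to 0.163). It was also lost by DESeq2 (0.30, adjusted p = 0.0832), with no filter (0.27, adjusted p = 0.157), with hemoglobin genes kept in the clustering (0.24, adjusted p = 0.0952) and without the block (0.30, adjusted p = 0.43). Rbl2, whose protein p130 is typical of resting cells, was at 20.2 ± 3.62, 20.1 ± 8.09 and 19.3 ± 3.35 CPM (SD, n = 5) in G0/G1-like, S and differentiating cells of Vehicle tumors and gave no call there. In Vismodegib it was lower in S phase than in G0/G1-like cells in 5 of 5 tumors, with a difference of -0.87 ± 0.28 (adjusted p = 0.0207), and the call was lost without Vismodegib 2 or 3 (-0.70 and -0.67, adjusted p 0.116 to 0.131).

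The partners and regulators of the pathway, a list of 28 genes (E2f6, the DP partners, the D and E cyclins with Cdk2, Cdk4 and Cdk6, the Cdk inhibitors, the DREAM and MuvB subunits and Mybl1, Mybl2, Foxm1 and Skp2), were counted in the same comparisons, for which the share of all genes called is given above. In S phase against G0/G1-like cells 19 of 26 tested were called higher and 2 lower in Vehicle, 14 of 24 higher and 1 lower in Vismodegib and 6 of 19 higher and 0 lower in WT. The following genes were named after their values were seen. The 2 lower in Vehicle were the Cdk inhibitor genes Cdkn1b (-0.25) and Cdkn1c (-0.96). From S to G2/M 6 of 26 were called higher and 5 lower in Vehicle. Cyclin E genes fell, with -0.75 ± 0.14 for Ccne1 and -1.51 ± 0.10 for Ccne2, while Foxm1, a mitotic activator, rose by 1.20 ± 0.14 and Cdkn2d by 1.65 ± 0.09. In differentiating against G0/G1-like cells 18 of 26 were called lower and 3 higher in Vehicle, 20 of 24 lower and 2 higher in Vismodegib and 13 of 19 lower and 2 higher in WT.

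The second comparison asks how the 10 transcripts differed after vismodegib. Over all granule lineage-like cells none of the 10 was called by edgeR in either direction, beside 13.2% of 12476 genes tested. DESeq2 also called 0. At an unadjusted p under 0.05 edgeR gave 2 members, E2f2 and Rb1, beside 3221 of the 12476 genes tested. That share of the members is no higher than the share of all genes. The median change of the 10 was 0.04, beside 0.00 over all genes. This level mixes the change within cells with the change in class shares given above. Within classes, E2f2 was called higher in Vismodegib in G2/M cells (1 of 10 members, beside 2.23%) and in G0/G1-like cells (1 of 9, beside 4.17%). No member was called in S phase cells (0 of 10, beside 1.69%, with 1 by DESeq2) or in differentiating cells (0 of 7, beside 5.91%, with 0 by DESeq2). At an unadjusted p under 0.05 edgeR gave 1 member in S phase cells, beside 905 of 9313 genes. It gave 0 in differentiating cells, beside 1800 of 9550 genes.

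Of the members tested E2f2 had the largest differences over all, S, G2/M and G0/G1-like cells, in the last of which E2f8 was not tested. In G0/G1-like cells it was at 21.4, 14.5, 21.0, 9.77 and 8.81 CPM in the 5 Vehicle tumors and at 46.6, 66.1, 42.8, 31.4 and 34.6 CPM in the 5 Vismodegib tumors. All 5 treated tumors were above all 5 controls. The difference was 1.58 ± 0.31 (adjusted p = 0.00541), and it was called without any 1 of the 10 tumors, with stricter phase limits (1.97, adjusted p = 0.0114), and within either set of tumors by the serial numbers in the labels (1.49 for numbers 4 to 10 and 1.84 for 12 to 15, adjusted p = 0.0439 and 0.0198). Within numbers 4 to 10 E2f8 was tested too, and its difference of 1.81 (adjusted p = 0.1375) was larger but not called. The G0/G1-like cells of treated tumors also held more marker UMIs each, with 1.49 ± 0.174 in Vehicle and 1.94 ± 0.263 in Vismodegib for the G2/M markers and 2.31 ± 0.127 and 2.78 ± 0.227 for the differentiation markers, beside the S markers given above (SD, n = 5). For each of the 3 lists all 5 treated tumors were above all 5 controls, and the part of this in the E2f2 difference was not tested. A granule lineage-like tumor cluster of 617 cells had E2f2, Ccne2, Ccne1 and Mybl2 among its 10 leading genes. Its cells held means of 4.88 S, 6.99 G2/M and 4.97 differentiation marker UMIs. The part of this cluster in the E2f2 difference was not tested either. In G2/M cells E2f2 was at 42.0, 36.5, 40.4, 28.6 and 24.2 CPM in Vehicle and 52.8, 60.4, 68.3, 47.0 and 69.2 CPM in Vismodegib, again without overlap, a difference of 0.82 ± 0.19 (adjusted p = 0.0355). That call was lost without any 1 of Vismodegib 1, 2, 3 and 5 and Vehicle 2, 4 and 5 (0.70 to 0.86, adjusted p 0.0549 to 0.114). It was also lost within either set of serial numbers, with 0.62 for numbers 4 to 10 and 1.135 for 12 to 15 (adjusted p = 0.471 and 0.051). In S phase cells it was at 73.3, 62.9, 53.0, 49.6 and 39.1 CPM in Vehicle and 99.8, 122, 90.3, 73.6 and 81.8 CPM in Vismodegib, with the lowest treated tumor just above the highest control, and the difference of 0.75 ± 0.19 (adjusted p = 0.0545) did not pass. It was called without Vehicle 1 (0.85, adjusted p = 0.0368), by DESeq2 (0.75, adjusted p = 0.0204), with no filter (0.72, adjusted p = 0.0357), with the replicate block (0.77, adjusted p = 0.027) and with the set of serial numbers as a covariate (0.77, adjusted p = 0.00789). Over all cells E2f2 differed by 0.58 ± 0.23 (adjusted p = 0.124), called with the replicate block (0.57, adjusted p = 0.0492) and with the set of serial numbers (0.57, adjusted p = 0.0141).

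Rb1 was the other member at an unadjusted p under 0.05 over all granule lineage-like cells, and its means in the other cell types are given below. Over all granule lineage-like cells Rb1 was at 51.9, 31.8, 68.0, 41.7 and 35.0 CPM in Vehicle and 73.9, 86.9, 68.6, 50.3 and 53.6 CPM in Vismodegib, and only Vehicle 3 and Vehicle 1 reached the treated range. The difference was 0.55 ± 0.21 (adjusted p = 0.117) and was called without Vehicle 3 (0.73, adjusted p = 0.0219). In G0/G1-like cells it was 0.81 ± 0.24 (adjusted p = 0.0715) and in G2/M cells 0.68 ± 0.20 (adjusted p = 0.12), and both were also called without Vehicle 3 (0.96 and 0.87, adjusted p = 0.0275 and 0.0199). The first was called too with the set of serial numbers (0.82, adjusted p = 0.0313) and with the replicate block (0.85, adjusted p = 0.0324). E2f1 in G0/G1-like cells was at 114, 74.4, 135, 66.2 and 56.8 CPM in Vehicle and 127, 244, 111, 97.9 and 116 CPM in Vismodegib, a difference of 0.65 ± 0.26 (adjusted p = 0.228) that was called with the set of serial numbers (0.70, adjusted p = 0.0441). E2f1 over all cells was at 163, 81.0, 155, 77.1 and 68.2 CPM in Vehicle and 138, 219, 101, 56.1 and 70.3 CPM in Vismodegib, so its spread within each group, more than 2-fold, exceeded the difference of 0.10 ± 0.34 (adjusted p = 0.891). Vehicle 1 and 3 and Vismodegib 1, 2 and 3 were at 101 CPM or more and the other 5 tumors at 81.0 CPM or less, the order of the component of variance described above except for Vismodegib 3. All tumors at 101 CPM or more carry serial numbers 4 to 10. Every tumor numbered 12 to 15 is among the lower 5, as is Vehicle 2, and the labels do not say what these numbers mark.

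**Figure D3:**
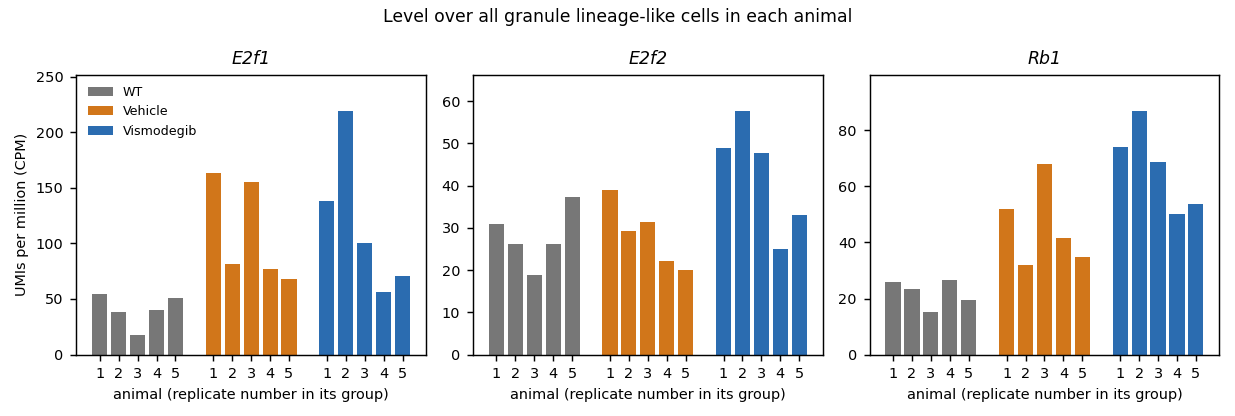
Level of E2f1, E2f2 and Rb1 over all granule lineage-like cells in CPM (linear axis from 0), 1 bar for each of the 15 animals, colored by group. E2f1 was 163 and 155 CPM in Vehicle 1 and 3 and 68.2 to 81.0 CPM in the other Vehicle tumors, and the Rb1 bars of WT, 15.2 to 26.6 CPM, were below every tumor.

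With the class shares held at the Vehicle means, so that a tumor's level no longer depends on how many of its cells were in each class, E2f2 was at 25.2 ± 6.03 CPM in Vehicle and 48.2 ± 9.47 CPM in Vismodegib (SD, n = 5). The mean log2(CPM + 1) differed by 0.92 (p = 0.00794, 2-sided exact permutation test over 252 assignments, the smallest p that 5 against 5 allows). Rb1 differed by 0.62 in the same direction (p = 0.0317, exact permutation test), with 44.6 ± 14.3 CPM in Vehicle and 67.5 ± 12.5 CPM in Vismodegib. The other 8 members differed by -0.13 (E2f5) to 0.38 (E2f8), with exact permutation p from 0.175 to 0.857. Without Vehicle 3 the value of E2f3 moved from 0.24 to 0.41. These p-values are not corrected for the 10 members tested, and with that correction none of the 10, E2f2 and Rb1 included, passed 0.05. A member alone at the smallest p could not pass with it, so the outcome for E2f2 was set by the number of animals. Without Vehicle 3, E2f2 and E2f3 passed with the correction.

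The third test asked whether the treatment difference itself depended on the phase class. It did for E2f1 (adjusted p = 3.48e-06) and E2f2 (adjusted p = 0.00507), 2 of 10 members beside 16.3% of all genes tested. The E2f2 call was lost without Vehicle 2 (adjusted p = 0.0529). E2f8 (adjusted p = 0.0839) was called without Vismodegib 5 (adjusted p = 0.0352) and Rbl1 (adjusted p = 0.0589) without Vehicle 1 or Vismodegib 3 (adjusted p 0.0147 to 0.045). In the term of differentiating against G0/G1-like cells 3 of 10 members were called, all lower, beside 9.27% of genes. E2f1 differed there by -1.08 ± 0.17 (adjusted p = 1.66e-06), E2f2 by -1.52 ± 0.37 (adjusted p = 0.00255) and Rbl1 by -1.11 ± 0.34 (adjusted p = 0.0237). E2f1 went from 89.3 ± 33.7 to 58.2 ± 22.7 CPM between G0/G1-like and differentiating cells in Vehicle and from 139 ± 59.5 to 44.8 ± 26.4 CPM in Vismodegib (SD, n = 5). Both classes of this term also differed in marker UMIs between the groups. Differentiating cells held 10.4 ± 0.450 differentiation marker UMIs each in Vehicle and 11.9 ± 0.367 in Vismodegib (SD, n = 5), without overlap. The G0/G1-like cells differed as given above, and the part of either class in these terms was not tested. The S phase and G2/M terms called no member (beside 1.29% and 1.53% of genes). At an unadjusted p under 0.05 they gave 4 and 2 members, beside 1327 and 1385 of 10998 genes.

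Among the pathway genes 3 of 26 were called over all granule lineage-like cells, all lower in Vismodegib, beside 13.2% of all genes called in either direction. Ccnd1, a cyclin D gene that responds to hedgehog signaling in these cells, was at 882, 649.8, 727, 556 and 765 CPM in Vehicle and 398, 314, 242, 204 and 232 CPM in Vismodegib, without overlap, a difference of -1.37 ± 0.18 (adjusted p = 0.000411). Its kinase partner gene Cdk6 differed by -0.90 ± 0.17 (adjusted p = 0.00365) and the Cdk inhibitor gene Cdkn1c by -0.95 ± 0.26 (adjusted p = 0.0265). Ccnd1 was also called lower within each class, with differences of -0.88 ± 0.14 in S, -0.83 ± 0.16 in G2/M, -1.06 ± 0.17 in G0/G1-like and -2.39 ± 0.23 in differentiating cells. In G0/G1-like cells, where E2f2 was higher, 2 cyclin genes, named after their values were seen, were called higher too, Ccne2 (1.04 ± 0.26, adjusted p = 0.0302) and Ccnd2 (0.68 ± 0.18, adjusted p = 0.0445), and Cdk6 (-0.74 ± 0.20, adjusted p = 0.0477) was called lower.

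**Figure D4:**
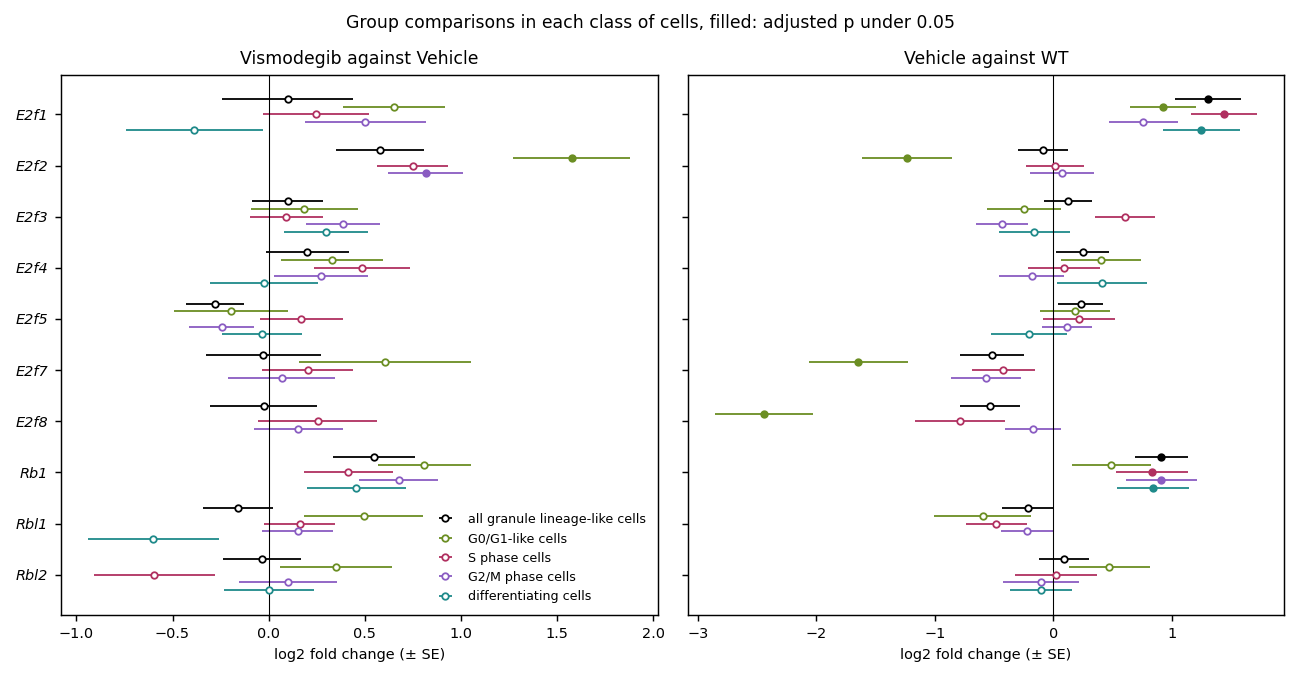
Log2 fold change ± SE (edgeR) of each transcript for Vismodegib against Vehicle and for Vehicle against WT, over all granule lineage-like cells and within each class, each panel with its own axis. Filled points passed an adjusted p under 0.05. In the treatment panel only E2f2 has filled points, for G0/G1-like (1.58) and G2/M cells (0.82), and in the other panel E2f1 and Rb1 lie right of 0 in every class.

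The last comparison, of Vehicle tumors with WT cerebella, gave E2f1 and Rb1. Their means were also higher in Vehicle in the other cell types found in both groups, as given below without test. Over all granule lineage-like cells these 2 of 10 members were called, both higher in tumors, beside 44.3% of genes tested. E2f1 was at 54.6, 38.5, 18.0, 40.3 and 50.7 CPM in the 5 WT cerebella, below each of the Vehicle tumors, with a difference of 1.31 ± 0.28 (adjusted p = 0.00137). Rb1 was at 25.9, 23.3, 15.2, 26.6 and 19.6 CPM in WT, also below each tumor, with a difference of 0.91 ± 0.23 (adjusted p = 0.00402). The share of members called is below that of all genes, and genotype, age, injection, device and spike-in cannot be told apart. E2f7 differed by -0.52 ± 0.27 (adjusted p = 0.134) and E2f8 by -0.53 ± 0.25 (adjusted p = 0.0983), and without Vehicle 3 both were called lower in tumors (-0.68 and -0.65, adjusted p = 0.0484 and 0.0483).

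Within classes E2f1 was called higher in tumors in S phase (1.44 ± 0.28, adjusted p = 0.000504), G0/G1-like (0.93 ± 0.28, adjusted p = 0.0142) and differentiating cells (1.25 ± 0.33, adjusted p = 0.00705). In G2/M cells it differed by 0.76 ± 0.29 (adjusted p = 0.0507) and was called without Vehicle 2, 4 or 5 (0.85 to 0.91, adjusted p 0.0184 to 0.0313), by DESeq2 (0.84, adjusted p = 0.0377) and with no filter (0.88, adjusted p = 0.00104). E2f3 in S phase differed by 0.60 ± 0.25 (adjusted p = 0.0766). It was called higher without Vehicle 5 or WT 1 (0.71 to 0.78, adjusted p 0.0399 to 0.0459) and with no filter (0.77, adjusted p = 0.00845). In G2/M E2f3 differed by -0.43 ± 0.22 (adjusted p = 0.143) and E2f7 by -0.57 ± 0.30 (adjusted p = 0.148). Both were called lower without Vehicle 3 (-0.59 and -0.82, adjusted p = 0.0298 and 0.0236). Members called were 2 of 10 in S phase (beside 31.6%), 1 of 10 in G2/M (beside 33.8%), 4 of 10 in G0/G1-like (beside 31.9%) and 2 of 6 in differentiating cells (beside 30.3%). Rb1 accounted for the others in S phase (0.83 ± 0.31, adjusted p = 0.0437), G2/M (0.91 ± 0.30, adjusted p = 0.025) and differentiating cells (0.84 ± 0.30, adjusted p = 0.0405). The S phase call of Rb1 was lost without Vehicle 1 or 3 or WT 1, 3, 4 or 5 (0.67 to 0.88, adjusted p 0.0615 to 0.115). Its G2/M call was lost without Vehicle 3 or WT 1, 2 or 5 (0.73 to 0.83, adjusted p 0.0525 to 0.0989) and that in differentiating cells without Vehicle 3 or 4 or WT 2, 3, 4 or 5 (0.62 to 0.84, adjusted p 0.0625 to 0.102). With stricter limits Rb1 was not called in S phase (0.49, adjusted p = 0.338) or G2/M (0.71, adjusted p = 0.124). With the replicate block it was not called in S phase (0.83, adjusted p = 0.0728) or in differentiating cells (0.86, adjusted p = 0.0593). Neither was called with hemoglobin genes kept in the clustering (0.86, adjusted p = 0.052 in S phase and 0.76, adjusted p = 0.0692 in differentiating cells).

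In G0/G1-like cells 3 members were called lower in Vehicle than in WT, namely E2f8 (-2.44 ± 0.42, adjusted p = 0.000131), E2f7 (-1.65 ± 0.42, adjusted p = 0.00475) and E2f2 (-1.24 ± 0.38, adjusted p = 0.0164). E2f8 was at 25.5, 22.2, 21.8, 14.7 and 25.8 CPM in WT against 8.56, 2.72, 6.11, 3.01 and 3.48 CPM in Vehicle, from 35 and 42 UMIs in all. The values did not overlap, but E2f8 passed the filter on low counts here through the WT animals alone, where it was high. Its being tested therefore depended on this difference, and E2f7 passed mainly through WT. The E2f2 call was lost without WT 1 or WT 5 (-1.15 and -1.01, adjusted p = 0.0521 and 0.0664). More of the WT than of the Vehicle cells in this class lay near a limit, as given above, and they held 2.23 ± 0.229 G2/M marker UMIs each (SD, n = 5), whose part in these differences was not tested. With stricter limits E2f1 and E2f5 alone could be tested there and neither was called. With hemoglobin genes kept in the clustering E2f7 and E2f8 were not tested there. Of the pathway genes over all cells 6 of 26 were called higher in Vehicle and 3 lower, beside 44.3% of all genes called in either direction. Cdk6 (2.24 ± 0.19), Ccnd3 (1.83 ± 0.24) and Ccnd1 (1.28 ± 0.14) were among the higher and the DP partner gene Tfdp2 (-1.128 ± 0.16) among the lower, named after their values were seen, each with an adjusted p of at most 5.58e-05.

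In the other cell types, which were few, levels are a description without test. E2f5 had its highest mean in astrocyte-like cells, with 108 ± 73.5 CPM in WT (SD, n = 5), 67.8 ± 47.1 CPM in Vehicle (SD, n = 4, with 1 animal at 0) and 52.9 ± 25.2 CPM in Vismodegib (SD, n = 5), beside 29.1 ± 6.97, 36.0 ± 6.19 and 29.7 ± 2.27 CPM in granule lineage-like cells. E2f1 in microglia-like cells was at 22.6 ± 16.5 CPM in WT, 54.8 ± 20.8 CPM in Vehicle (SD, n = 4 each) and 67.2 ± 50.0 CPM in Vismodegib (SD, n = 5), below granule lineage-like cells in the mean. E2f1 and Rb1 had higher means in Vehicle than in WT in astrocyte-like, fibroblast or mural-like, microglia-like and oligodendrocyte lineage-like cells. For E2f1 these were 17.5, 20.7, 54.8 and 18.3 CPM against 8.63, 4.13, 22.6 and 7.71 CPM. For Rb1 they were 52.9, 15.2, 23.9 and 40.8 CPM against 31.4, 6.1, 15.0 and 2.89 CPM. Rb1 in Vismodegib was above Vehicle in astrocyte-like (67.6 CPM), fibroblast or mural-like (33.1 CPM) and microglia-like cells (60.2 CPM). It was below Vehicle in oligodendrocyte lineage-like cells (20.1 CPM). These types rest on at most 90 UMIs a gene and group, and the animals spread widely. The share of UMIs that came into their droplets from other cells was not estimated.

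Across the 60 profiles of 15 animals by 4 classes, the genes most like each member, among 7388 genes (7389 for Rbl2) with a mean of at least 20 CPM that were no phase or differentiation markers, are given with Pearson's r of log2(CPM + 10) as a description, and profiles share animals and libraries. E2f1 was closest to Rcc2 (0.92), Eif3a (0.91) and Baz1a (0.89) and E2f2 to Ctps (0.89), Rpa1 (0.88) and Myb (0.87). E2f3 was closest to Bard1 (0.82), Smchd1 (0.79) and Sclt1 (0.79). E2f7 was closest to Ncapg2 (0.90), Haus6 (0.86) and Rbl1 (0.86), so 1 of its 3 nearest genes was itself a member. E2f8 was closest to Cenpn (0.89), Fbxo5 (0.89) and Casc5 (0.89), of which Fbxo5 encodes the inhibitor of the anaphase-promoting complex Emi1 and Cenpn a centromere protein. E2f5 was closest to Spdl1 (0.78), Cenpl (0.78) and Cenpj (0.77), the first a spindle checkpoint gene and the other 2 genes of the centromere and the centriole. Rbl1 was closest to Supt16 (0.89), Rbbp8 (0.88) and Nsl1 (0.88) and Rb1 to Rcor1 (0.84), Phip (0.84) and Scrib (0.83). The weakest matches were those of E2f4, to Baz1b (0.71), Taf10 (0.70) and Hnrnpu (0.68), and of Rbl2, to Fam76a (0.58), Zfp646 (0.51) and Setd2 (0.51).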

How the data were processed

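Single-cell 3′ mRNA of 5 WT cerebella, 5 Vehicle and 5 Vismodegib tumors was measured by Drop-seq. The authors aligned reads with STAR to mm10 with added Cre and SmoM2/EYFP sequences, after picking mouse barcodes in the tumor libraries from a mixed hg19 and mm10 alignment, and deposited raw UMI counts per gene and cell, with no normalization. The submitters' processing notes also name bcl2fastq 2.18 and Seurat 2.3.0. Cells with at least 500 UMIs and 500 genes and within 5 SD of the median were kept, no doublet caller was run, and cells were clustered without the 10 members, the pathway genes and hemoglobin genes. Counts were summed per animal and class and tested with the quasi-likelihood test of edgeR 4.0.16 in R 4.3.3, Benjamini-Hochberg adjusted over all genes tested. Phase fits hold the animal as a block. Single values were compared with 2-sided exact permutation tests. The scripts were tested on simulated data.

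The members and lists were chosen with earlier results of these data known. The named genes were the 10 members, the 28 pathway genes as counts with values for those called in the treatment comparison over all cells, the 3 genes most like each member, and Gli1. Alternatives were DESeq2 1.42.0, no filter on low counts, 4 SD limits, stricter phase limits, the replicate block, the set of label serial numbers as a covariate, other weights and pseudocounts, and leaving out each animal. Genes whose DESeq2 fit did not converge were left out of that alternative. Keeping hemoglobin genes and fits within each set of serial numbers were added after seeing the data. Each library is 1 mouse. Libraries with fewer cells give less precise sums, and PCR and capture losses are not covered by the counts.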

Additional observations from a re-analysis of the deposited data

Results flagged for a closer look

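E2f3 over all granule lineage-like cells of the Vehicle tumors was at 43.8, 45.3, 76.5, 37.9 and 41.2 CPM. Vehicle 3 stood apart from the others, with 0.807 of the whole range between it and the nearest tumor. It was the 1 group flagged in this way of 30 groups tested, and chance flags about 1 in 20.

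The treatment difference of E2f1 depended on the phase class (edgeR, adjusted p = 3.48e-06), as did that of E2f2 (edgeR, adjusted p = 0.00507), and the second was lost without Vehicle 2 (adjusted p = 0.0529). E2f1 was at 190.0 ± 74.2 CPM in S phase and 58.2 ± 22.7 CPM in differentiating cells of Vehicle tumors, and at 226 ± 100.4 and 44.8 ± 26.4 CPM in those of Vismodegib tumors (SD, n = 5). E2f2 was at 15.1 ± 5.96 and 6.30 ± 2.97 CPM in G0/G1-like and differentiating cells of Vehicle tumors and at 44.3 ± 13.7 and 8.51 ± 4.58 CPM in those of Vismodegib tumors. As given above, the marker UMIs of G0/G1-like and of differentiating cells also differed between the groups, and their part was not tested.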

How the results depend on the processing

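Of 2842 values of the members and of the phase shares under alternatives, 2704 kept their side of the threshold, 101 lost and 36 gained the call and 1 reversed. The last was E2f7 in differentiating against G0/G1-like cells of Vismodegib under stricter phase limits (0.38). A change of direction was counted only where a value was called as reported or under the alternative. Uncalled values that changed direction are therefore among the 2704. The cause of these changes was not tested. Members called are given below where their number moved by over 1.5 times, with the number as reported in brackets. Shares of all genes called under each alternative are not given beside them. A moved count is therefore no result about the members in particular. Without the replicate block they were 1 (5) for G2/M against S in Vehicle, 4 (7) for differentiating cells in Vehicle, 4 (7) for S and 0 (4) for G2/M against S in Vismodegib, and 0 (2) and 0 (1) for these in WT. With stricter limits they were 4 (7), 3 (7) and 2 (5) for differentiating cells in Vehicle, Vismodegib and WT, 0 (1) for G2/M against S in WT, and 1 (2), 0 (1) and 0 (4) for Vehicle against WT in S, G2/M and G0/G1-like cells. Some called members were not tested with stricter limits, namely E2f5 in WT for G2/M against S, E2f2 and E2f8 in WT for differentiating cells, and E2f2, E2f7 and E2f8 for Vehicle against WT in G0/G1-like cells. DESeq2 gave 2 (4) for G2/M against S in Vismodegib, and both DESeq2 and no filter gave 1 (0) for treatment in S and 2 (1) for Vehicle against WT in G2/M. Keeping hemoglobin genes gave 1 (2), 2 (4) and 1 (2) for Vehicle against WT in S, G0/G1-like and differentiating cells, and in G0/G1-like cells E2f7 and E2f8 were not tested rather than lost. With the set of serial numbers as a covariate the treatment gave 1 (0) over all cells, 1 (0) in S and 3 (1) in G0/G1-like cells, and within either set 0 (1) in G2/M.

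With the replicate number as a block, treatment gave 1 (0) over all cells, 1 (0) in S and 2 (1) in G0/G1-like cells, and Vehicle against WT 1 (2) in S and 1 (2) in differentiating cells. Same-numbered Vehicle and Vismodegib samples deviated together with r from -0.170 to 0.3998 and WT and Vehicle samples with r from -0.173 to 0.013, so not every pair was over 0.1. No label says that a number marks a shared litter, batch or day, and the samples were not taken as paired.

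Leaving out 1 animal gave 7 to 7, 6 to 7 and 1 to 3 members for S against G0/G1-like cells in Vehicle, Vismodegib and WT, 5 to 5, 2 to 4 and 0 to 2 for G2/M against S, and 6 to 7, 5 to 6 and 4 to 5 for differentiating cells. Treatment gave 0 to 1 over all cells, 0 to 1 in S, 0 to 2 in G2/M, 1 to 2 in G0/G1-like and 0 to 0 in differentiating cells, 0 to 2 at fixed shares after correction for the 10 members (E2f2 and E2f3, without Vehicle 3) and 1 to 3 by phase, and 3 to 3 shares. Vehicle against WT gave 2 to 4, 1 to 3, 0 to 2, 3 to 4 and 1 to 2 over all, S, G2/M, G0/G1-like and differentiating cells. Depth limits the sparsest members, and E2f8 in G0/G1-like cells rests on 30 to 42 UMIs a group.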
